A study of Mus musculus with 4 samples.

Results

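Binding of NKX2.2, a homeodomain transcription factor of pancreatic endocrine cells, was examined over the imprinted Dlk1-Meg3 domain of mouse chromosome 12 and the neighbouring gene Wdr25. The 9 genes described are Yy1, Wdr25, Begain, Dlk1, Meg3, Rtl1, Rian, Mirg and Dio3, of which 6 are protein-coding and 3 are long noncoding RNA (lncRNA) genes. The summits described are those from 10 kb before the first of these genes to 10 kb after the last, 12:108782945-110291097 on GRCm38. This interval of 1.51 Mb held 15 of the 7384 summits in the list. A summit marks the base at which a peak is highest. The genes were chosen because of the positions and scores of these summits, so all counts, scores and spacings at them are descriptions and no test is made on them.

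The summits come from chromatin immunoprecipitation sequencing (ChIP-seq), in which DNA bound by a protein is pulled down with an antibody. The cells were alphaTC6, a cultured mouse line that stands for the glucagon-producing alpha cell. All libraries were labelled wild type, and no treatment is named: 2 were NKX2.2 ChIP samples and 2 were input samples, the unenriched control DNA. The study asked where NKX2.2 sits in the genome of these cells. A single list with 1 score per peak was analysed, with no value per library, so read depth is unknown and none of the values has a replicate error. The score is taken as the authors' −log10 q-value, since its column has no name, and ran from 2.03 to 1648 over the list. It states how firmly a peak stood out from input, and it depends on depth as well as on the size of the enrichment. A list of summits holds no expression values, so the cell type label was not checked against marker genes, and the parental origin of the bound chromosome is not given.

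Imprinted genes are expressed mainly from the chromosome inherited from 1 parent. In the Dlk1-Meg3 domain, the protein-coding genes Dlk1, Rtl1 and Dio3 are expressed mainly from the paternal chromosome, and the noncoding genes Meg3, Rian and Mirg from the maternal one. A differentially methylated region between Dlk1 and Meg3 controls this pattern. Rian carries small nucleolar RNAs and Mirg carries microRNAs, and microRNAs of the cluster are known to be expressed in islets. Yy1, which encodes a zinc-finger transcription factor, and Wdr25, which encodes a WD-repeat protein, lie beside the imprinted genes.

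Of the 15 summits, 11 lay inside Wdr25, 1 inside Yy1, 1 inside Slc25a47, 1 between Begain and Dlk1, and 1 among the microRNA genes between Rian and Mirg. No summit lay inside Begain, Dlk1, Meg3, Rtl1, Rian, Mirg or Dio3. A summit in or within 10 kb of the gene was therefore found for 2 of the 9 genes, Yy1 and Wdr25. Both are protein-coding, which makes 2 of 6 protein-coding and 0 of 3 lncRNA members. Over the genome 25.8% of protein-coding genes and 14.5% of lncRNA genes had a summit at that distance. These shares stand beside the count as background, and nothing is read from the comparison, since the genes were chosen on the same values.

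Promoter windows are stretches at annotated transcript starts, and promoter activity was not tested. Sequences are shown for the 3 members that had a summit within 15 kb and an entry in the RefSeq table. The 15 kb limit was chosen after the distances were seen. Yy1 has a summit beside its promoter window, and Dlk1 and Mirg each lie next to a summit outside genes. The table had an entry for 7 of the 9 members, with 12 promoter windows in all. Wdr25 and Rtl1 had none. Each line gives the 250 bases before an annotated transcript start, on the plus strand of GRCm38.p6, 5′ to 3′. For Yy1 and Dlk1 these bases lie inside the annotated gene, which begins before the printed stretch, at 108792945 and 109452485. The motifs searched on both strands were AAGTG, the core of the NKX2 motif, its longer form TNAAGTG, which contains that core, and CACCC, the core of the motif of KLF factors. Capitals mark matches to any of them.
Yy1, chr12:108793047-108793296: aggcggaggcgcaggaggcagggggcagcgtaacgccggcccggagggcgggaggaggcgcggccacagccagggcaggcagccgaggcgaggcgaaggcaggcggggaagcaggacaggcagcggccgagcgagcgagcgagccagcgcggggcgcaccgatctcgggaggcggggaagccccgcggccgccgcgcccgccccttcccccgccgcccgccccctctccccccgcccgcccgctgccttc
Dlk1, chr12:109452573-109452822: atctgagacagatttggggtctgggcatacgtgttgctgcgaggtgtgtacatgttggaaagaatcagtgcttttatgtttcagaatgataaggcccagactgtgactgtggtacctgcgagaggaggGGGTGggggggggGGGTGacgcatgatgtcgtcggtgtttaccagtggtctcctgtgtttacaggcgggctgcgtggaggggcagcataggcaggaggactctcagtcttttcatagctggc
Mirg, chr12:109734731-109734980: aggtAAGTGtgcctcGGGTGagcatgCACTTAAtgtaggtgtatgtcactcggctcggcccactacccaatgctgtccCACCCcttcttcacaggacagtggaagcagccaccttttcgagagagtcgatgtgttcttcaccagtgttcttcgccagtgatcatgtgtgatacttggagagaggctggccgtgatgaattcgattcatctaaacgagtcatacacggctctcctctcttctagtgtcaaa

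The 3 sequences differed in composition and in the motifs they hold. The Yy1 stretch held 36 CpG dinucleotides and no match to any of the 3 motifs. The Dlk1 stretch held 8 CpG dinucleotides and 2 matches to CACCC, both on the minus strand, at 122 and 109 bases before the transcript start. The Mirg stretch held 10 CpG dinucleotides, 2 matches to AAGTG, 1 of which was also the only match to TNAAGTG, and 2 matches to CACCC. The match to TNAAGTG began 224 bases before the transcript start of Mirg. The Mirg stretch also contains 2 microRNA hairpins, Mir668 (109734732-109734797) and Mir485 (109734902-109734974). Further plus-strand hairpins of the cluster, such as Mir382 and Mir134, lie before this stretch. Whether a transcript begins at the annotated Mirg start in these cells was not measured. All its matches to AAGTG and TNAAGTG, and the CACCC match that starts at base 16, lie inside the Mir668 hairpin. The CACCC match at base 79 lies outside both hairpins. Over all 12 windows of the members, each 300 bases long, AAGTG was found in 3 windows of 2 genes, Meg3 and Mirg, TNAAGTG in 1 window, that of Mirg, and CACCC in 8 windows of 5 genes. Several of these windows overlap or belong to the same gene. Of all 32851 promoter windows in the table, 46.4% held AAGTG, 11.5% held TNAAGTG and 57.5% held CACCC. A match is a stretch of letters and not evidence of binding. None of the summits of the interval fell inside one of the members' windows.

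**Figure D1:**
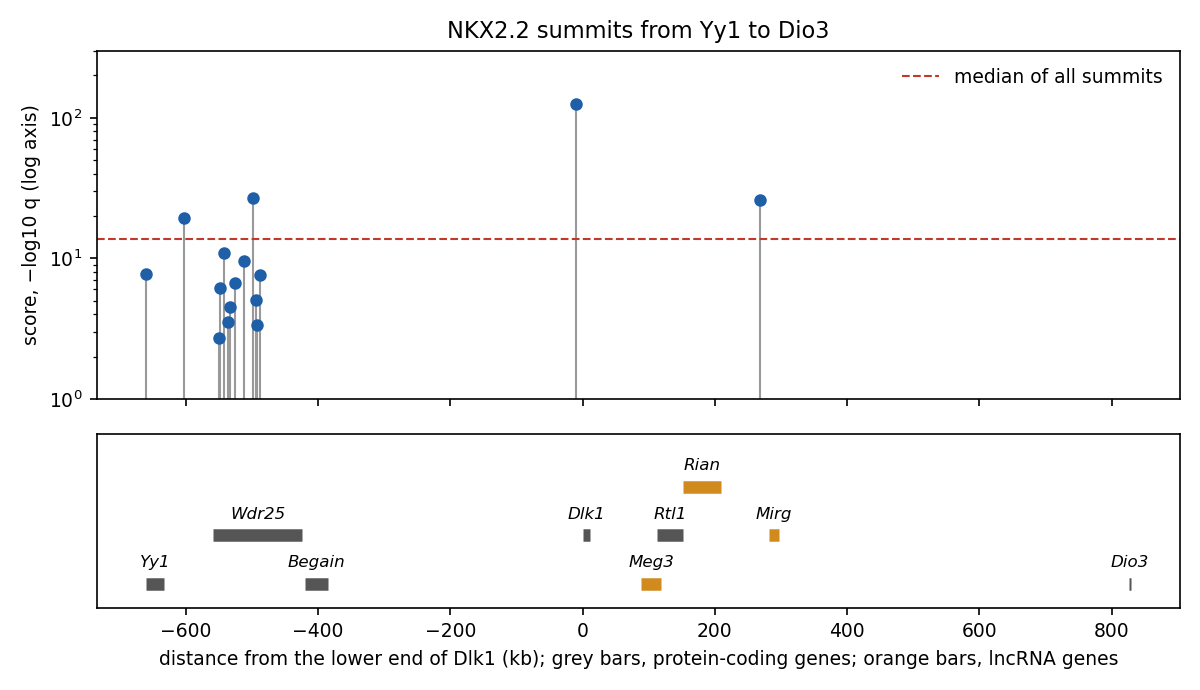
Scores of the 15 summits (upper panel, −log10 q, log axis) against distance from the end of Dlk1 with the smaller coordinate (kb), with the 9 genes drawn to scale below. The 11 summits at Wdr25 crowd together on the left, mostly at low scores but with 1 at 26.9. Single summits with scores of 125.7 and 26.0 stand before Dlk1 and before Mirg.

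Yy1 (gene ID 22632, 12:108792945-108820148) had 1 summit, at position 108792992 with a score of 7.79. It lay 47 bp inside the annotated end of the gene with the smaller coordinate and 305 bp before the transcript start used for the sequence above, or 55 bp outside that promoter window. The score ranked 5593 of 7384, so that 75.7% of the list scored as high or higher. The full Yy1 window held 42 CpG dinucleotides, against a median of 7 over all windows of the table and an upper quartile of 20. Of the 7 members with a promoter window in the table, Yy1 was the only one with a summit within 1 kb of a window.

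Between Yy1 and Wdr25 lie 3 further protein-coding genes, and 1 summit was listed there. It lay at position 108850133, 300 bp inside Slc25a47 (gene ID 104910), which encodes a mitochondrial carrier, with a score of 19.2. This was higher than all scores at Yy1 and Wdr25 but 1. Wars (gene ID 22375), which encodes the tryptophanyl-tRNA synthetase, had no summit inside it. It had 2 within 10 kb, the summit in Slc25a47 at 9897 bp and the first summit of Wdr25 at 7837 bp. Wars and Wdr25 overlap by 24 bp, so that first summit counts for both genes.

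Wdr25 (gene ID 212198, 12:108894152-109028454) had 11 summits, all inside the gene body, in which exons and introns were not distinguished. Widening the gene by 10 kb on both sides added none. The gene makes up 8.91% of the length of the interval and held 73.3% of its summits. Along the gene from its end with the smaller coordinate, the first 3 summits lay at 108902012, 108904593 and 108910509, with scores of 2.72, 6.18 and 10.9. The next 3 lay at 108916726, 108919215 and 108926367, with scores of 3.52, 4.47 and 6.71. They were followed by 108940434 with a score of 9.57 and by the highest of the gene, 108953872, with a score of 26.9. The last 3 lay at 108959333, 108960467 and 108965101, with scores of 5.04, 3.36 and 7.56. Scores did not climb or fall steadily along the gene, and weak summits stood on both sides of the highest one.

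The summits filled only 1 side of the gene. The first lay 7.86 kb from the end with the smaller coordinate, and the last lay 70.9 kb from that end, at 52.8% of the gene's length. The remaining 63.4 kb of Wdr25, which face Begain, held no summit. The 11 summits spanned 63.1 kb. When a window of this width was started at every summit of the list, this stretch of chromosome 12 was the only one to hold 11 or more. The width was taken from Wdr25 itself, so the count only places this stretch within the list.

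Spacing inside the run was uneven. The 10 gaps between consecutive summits had a median of 5.69 kb and ranged from 1134 bp, between 108959333 and 108960467, to 14067 bp, between 108926367 and 108940434. Of these gaps, 8 were under 10 kb. The other 2 lay next to each other, on both sides of the summit at 108940434, and separated a group of 6 summits from a group of 4. Over the list, the median gap between neighbouring summits was 95.1 kb.

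**Figure D2:**
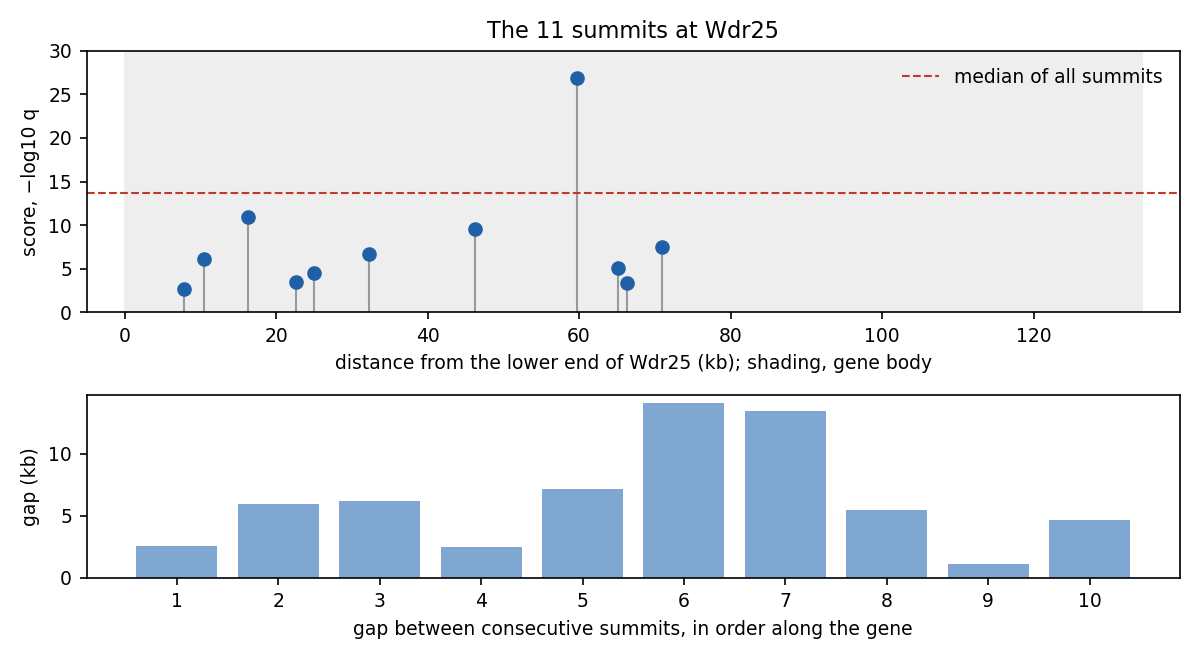
Upper panel, score (−log10 q) of the 11 Wdr25 summits against distance from the gene's end with the smaller coordinate (kb), with the median of all summits dashed; lower panel, the 10 gaps between them (kb). Only the summit at 59.7 kb, with a score of 26.9, is above the list median of 13.7, and the far side of the gene is empty.

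The summits at Wdr25 were many and mostly weak. Their median score was 6.18, against 13.7 over the list and 13.4 over the 299 summits of chromosome 12. The exact 95% binomial interval of the median was 3.36 to 10.9. This interval treats the summits as separate draws, covers no replicate error and takes no account of the choice of Wdr25 on these scores. It serves only as a yardstick for the alternative settings below, and no comparison with the list is drawn from it. Only 1 of the 11 was above the list median. A score under 5 was found for 4 of 11, 36.4%, against 9.78% of the list and 12.4% of chromosome 12. A score of at least 10 was found for 2 of 11, 18.2%, against 64.9% of the list. The weakest, at 108902012, ranked 7295 of 7384 and, with the score taken as −log10 q, corresponds to a q-value of 0.00189. The strongest, at 108953872, ranked 1897. A minimum score of 5 left 7 of the 11, and a minimum of 10 left only 108910509 and 108953872, which lie 43.4 kb apart.

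The 4 other summits of the interval had scores of 7.79, 19.2, 125.7 and 26.0, with a median of 22.6. The interval as a whole had 9.95 summits per Mb, against 2.59 per Mb between the first and last summit of chromosome 12. Without Wdr25 and its summits it had 2.91 per Mb.

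**Figure D3:**
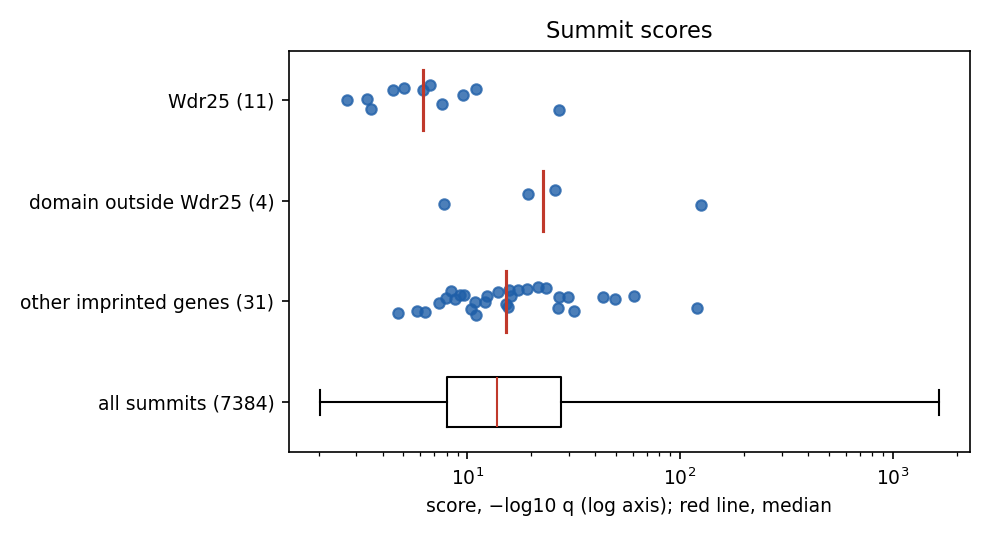
Scores (−log10 q, log axis) of the 11 Wdr25 summits, the 4 other summits of the interval and the 31 summits at other imprinted genes. Other imprinted genes are the listed genes outside chromosome 12 that are imprinted or lie in imprinted domains. Medians are in red, and a box of the whole list is below (box, quartiles, whiskers, lowest and highest score). The Wdr25 points lie mainly left of the box, whose lower edge is 7.98.

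Among long genes, Wdr25 stood near the top in density. Of the 4945 protein-coding genes of at least 50 kb, 70.8% had no summit in the gene body. Wdr25 had 8.19 summits per 100 kb and ranked 2. Ppard, which encodes a nuclear receptor for fatty acids, ranked first with 6 summits and 8.73 per 100 kb. Dnaic1, a dynein gene, Gys2, the liver glycogen synthase gene, and Shb, an adaptor protein gene, followed with 7.30, 5.94 and 5.58 per 100 kb. Dense genes did not all have weak summits: the median score was 6.82 at Ppard, 17.2 at Dnaic1, 15.4 at Gys2 and 11.3 at Shb. Of the 55 protein-coding genes with at least 5 summits in the gene body, only Tenm4, named after its value was seen, had a lower median score than Wdr25, at 6.08. The median over these 55 genes was 12.2. By its single highest summit Wdr25 was not at the bottom, as 13 of the 55 had a lower maximum.

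**Figure D4:**
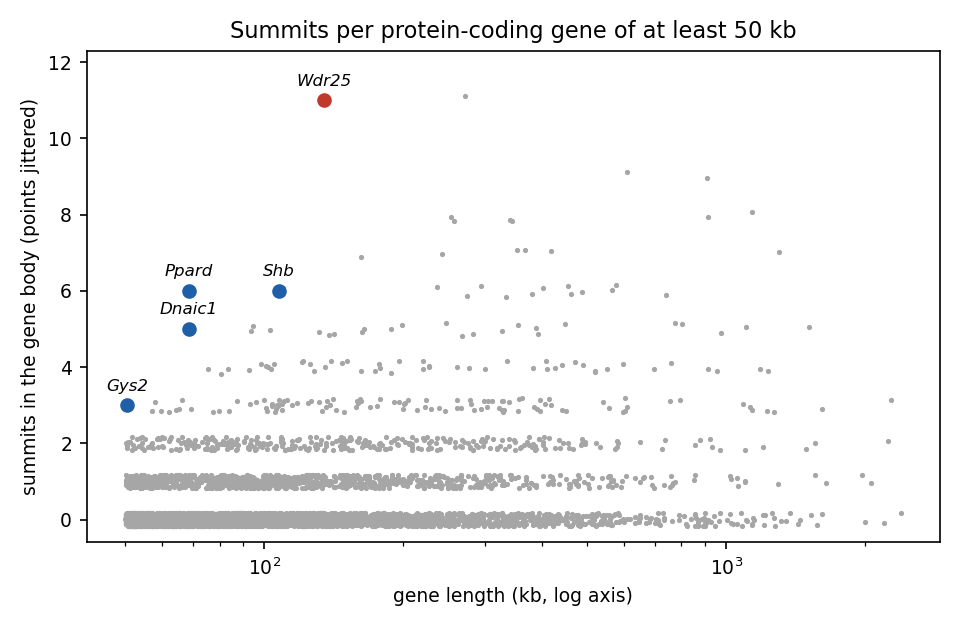
Number of summits in the gene body against gene length (kb, log axis) for the 4945 protein-coding genes of at least 50 kb, with points jittered vertically and the 5 densest genes named. Wdr25 (red) has 11 summits at 134 kb, where most genes have 0 or 1.

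After the last summit of Wdr25 came a stretch of 477.0 kb with no summit, which ends at the summit before Dlk1. It contains the rest of Wdr25 and the whole of Begain (gene ID 380785, 12:109032181-109068242), which encodes a protein of neuronal synapses. Begain lay 67.1 kb from its nearest summit, the last one of Wdr25. The Begain promoter windows face away from the run: the gene is on the minus strand, and its 5 windows lay between 87.9 and 103.1 kb from that summit. A gap this long was not unusual for the list. On chromosome 12, 55 of 298 gaps were at least as long, and over the list 15.9% were.

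Dlk1 (gene ID 13386, 12:109452485-109463336) encodes a transmembrane protein related to Notch ligands and known as a marker of preadipocytes and endocrine cells. It had no summit inside or within 10 kb. The nearest lay at 109442079, 10406 bp before the gene, and so 406 bp outside the 10 kb limit. This summit had a score of 125.7, the highest of the interval, which ranked 272 of 7384 and 11 of the 299 on chromosome 12. Only 3.68% of the list scored as high. It lay outside annotated genes, 10744 bp before the transcript start used for the Dlk1 sequence above and 373.8 kb beyond Begain, with Dlk1 as its nearest annotated gene. With a limit of 15 kb, chosen after this value was seen, Dlk1 and Mirg counted as having a summit, which made 4 of the 9 genes. The members that met the 10 kb limit, Yy1 and Wdr25, did so by summits inside the gene, so no value lies just inside it.

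No summit lay in the 88.5 kb from Dlk1 to Meg3, the segment that holds the methylated control region. Meg3 (gene ID 17263, 12:109540996-109571729), the maternally expressed lncRNA gene, lay 98.9 kb beyond the summit before Dlk1. Rtl1 (gene ID 353326, 12:109564900-109604418), a gene derived from a retrotransposon and needed in the placenta, lay 116.1 kb from its nearest summit. Rian (gene ID 75745, 12:109603945-109661716) lay 58.8 kb from it. The gap that spans Dlk1, Meg3, Rtl1 and Rian measured 278.4 kb, and 25.01% of the gaps in the list were at least as long. The distances at Meg3 and Rtl1 were near the middle of their gene classes: 52.1% of lncRNA genes lay at least as far from a summit as Meg3, and 41.4% of protein-coding genes at least as far as Rtl1. The missing summits state that no peak was called there, which an unknown depth does not turn into absence of binding.

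The last summit of the interval lay among microRNA genes. It was at 109720507, with a score of 26.0 and rank 1980, 58.8 kb beyond Rian and 14.5 kb before Mirg (gene ID 100040724, 12:109734981-109749458). It was outside annotated genes, 410 bp beyond the Mir667 hairpin on 1 side and 2211 bp before the Mir376c hairpin on the other. Of the 62 microRNA genes between Yy1 and Dio3, 23 had it within 10 kb, and all of these owe it to this 1 summit. Over the genome 15.7% of microRNA genes had a summit at that distance. The 23 genes share a single peak, so their number says nothing beyond its position. None of the 19 small nucleolar RNA genes of the interval had a summit within 10 kb.

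The sequence table matched 21 hairpins within 10 kb of this summit, 13 before and 8 after it, with 39 mature microRNAs. All hairpins but Mir299b lay on the plus strand. The mature sequences hold 36 different seeds (bases 2 to 8, which pair with targets), and 3 seeds occur in a pair of microRNAs each. Shown first are the microRNAs of the hairpins on each side of the summit, Mir667 and Mir376c, and then the pairs with a shared seed, in capitals, as RefSeq gives them for GRCm38.p6.
mmu-miR-667-5p: cGGUGCUGguggagcagugagcacg
mmu-miR-667-3p: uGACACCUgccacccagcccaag
mmu-miR-376c-5p: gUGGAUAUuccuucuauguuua
mmu-miR-376b-5p: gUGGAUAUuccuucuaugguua
mmu-miR-758-5p: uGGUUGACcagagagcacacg
mmu-miR-1197-5p: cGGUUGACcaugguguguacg
mmu-miR-299a-3p: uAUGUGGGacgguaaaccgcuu
mmu-miR-299b-3p: uAUGUGGGacgguaaacc

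The arms miR-376c-5p and miR-376b-5p come from hairpins 2211 and 2951 bp beyond the summit and share the seed UGGAUAU. Those of miR-758-5p and miR-1197-5p, 7617 and 8071 bp before it, share GGUUGAC. Mir299a and Mir299b lie 9807 and 9814 bp before it on opposite strands of the same stretch and share AUGUGGG. Whether any of these microRNAs was expressed was not measured in this experiment.

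Dio3 (gene ID 107585, 12:110279230-110281097) encodes the deiodinase that inactivates thyroid hormones and closes the domain. It was the member farthest from a summit. The nearest lay 150.9 kb beyond it, outside the interval, at 110431992 with a score of 4.55. On the other side the microRNA cluster summit was 558.7 kb away. This gap of 711.5 kb around Dio3 was matched or exceeded by 11.03% of the gaps in the list.

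**Figure D5:**
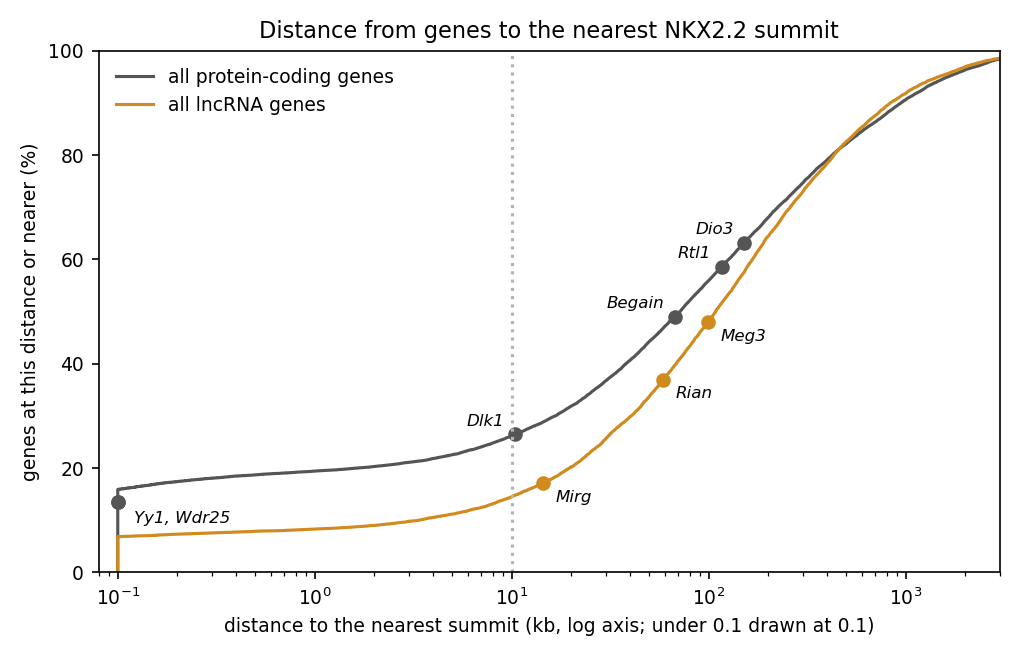
Share of genes (%) whose nearest summit lies at a given distance or nearer (kb, log axis), for all protein-coding genes (grey) and all lncRNA genes (orange), with the 9 members as points and 10 kb dotted. Yy1 and Wdr25 hold summits, Dlk1 lies just right of the dotted line at 10.4 kb, and Dio3 is farthest at 150.9 kb.

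The order of the members by distance to their nearest summit was Yy1 and Wdr25 (0 kb), Dlk1 (10.4 kb), Mirg (14.5 kb), Rian (58.8 kb), Begain (67.1 kb), Meg3 (98.9 kb), Rtl1 (116.1 kb) and Dio3 (150.9 kb). The median distance was 71.5 kb over protein-coding genes and 108.3 kb over lncRNA genes of chromosomes with a summit. All 3 lncRNA members were nearer than the lncRNA median, and 82.9% of lncRNA genes lay at least as far from a summit as Mirg. Of the protein-coding members, Rtl1 and Dio3 were farther than the protein-coding median.

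A list of summits holds positions and scores, so the run at Wdr25 can be related to the genes beside it by position alone. The last summit of the run lay 67.1 kb from Begain, 487.4 kb from Dlk1 and 575.9 kb from Meg3. The highest summit of the run lay 498.6 kb from Dlk1. The strongest summit of the interval, before Dlk1, was separate from the run by 477.0 kb and scored 125.7 against at most 26.9 within it. Contacts between these sites were not measured.

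For comparison, a list of 48 genes on other chromosomes was counted, 47 matched by symbol and 1, Nespas, by synonym. It holds genes known to be imprinted or to lie in imprinted domains, so not every gene on it need be imprinted. The list was written with earlier results of these data known. Of the 48 genes, 20 had a summit in the gene or at most 10 kb away. Among the 43 protein-coding ones 18 had a summit, 41.9% against 25.8% of all protein-coding genes, but their median length was 40.9 kb against 17.2 kb over all protein-coding genes. Neighbouring genes of the list share summits, and the 20 genes had 31 distinct summits with a median score of 15.2. Only 1 of these reached a score of 100, at 120.0.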

How the data were processed

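The series has 2 NKX2.2 ChIP and 2 input samples of alphaTC6 cells, grouped by their titles. Bowtie2, MACS2, FastQC and the build mm10 (GRCm38) are named in the submitters' processing notes, and MACS2 peak calling is stated in the labels' design text. The deposited score is taken as MACS2's −log10 q-value per peak, computed by the authors against input, since the lowest value lies just above 2, the value of a q-value of 0.01. Versions, duplicate handling and pooling of replicates are not given in the sources used here.

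Positions count from 1. Genes, promoters and microRNAs came from RefSeq tables of GRCm38.p6, with 21887 protein-coding, 12727 lncRNA and 1228 microRNA genes on the autosomes, X and Y. A gene had a summit when one lay in its body or within 10 kb. No genome sequence was used, so windows around summits were not searched for motifs, and promoter windows were searched instead. No test was made across genes.

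The members and lists were chosen with earlier results of these data known. The genes named were the members, genes with a summit in the interval, the gene nearest its highest summit and the 5 densest genes. Named too were the highest-scoring genes of the list of imprinted genes and domains, and others marked as named after their values were seen. Alternatives covered score minimums, merging and gene windows. Counting was tested on simulated data. Tables were handled with pandas 2.3.3 and numpy 2.4.6 in Python 3.11.15, intervals came from scipy 1.17.1, and figures from matplotlib 3.10.9.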

Additional observations from a re-analysis of the deposited data

How the results depend on the processing

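No paired analysis was possible because the summits carry 1 score each, with nothing per library, and replicates could not be left out in turn either. Of the 36 alternative values computed, 28 stayed within 1.5 times the count or inside the interval of the median, and 8 did not. A score minimum of 5 left 7 summits at Wdr25. A score minimum of 10 left 1 member with a summit (Wdr25), 5 summits in the interval and 2 at Wdr25, with a median score of 18.9 and a spacing of 43363 bp, by construction. With windows of 50 kb, 4 members had a summit, Yy1, Wdr25, Dlk1 and Mirg; a window of 15 kb, added after seeing the data, also gave 4. Merging summits within 500 bp or 1 kb changed none of these values. In the interval and at Wdr25 it could not, as the shortest gap there was 1134 bp. Counting the gene body alone could not change the values at Wdr25 either, since all its summits lay inside the gene. The 28 values that stayed therefore include some that could not move. Without the read depth, a gene lacking a summit shows only that no peak was called.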

Other observations

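Of the listed genes outside chromosome 12, Usp29, a ubiquitin protease gene of the Peg3 domain of chromosome 7, had the highest-scoring summit. It had 7 summits in or within 10 kb, the highest at position 6851948 with a score of 120.0. One of the 7, with a score of 23.5, was the summit inside Peg3, a paternally expressed zinc-finger gene, at 6728501. Zim1, beside them and named after its value was seen, had 1 summit with a score of 12.4. After Usp29, the highest scores were at Ppp1r9a on chromosome 6 (49.7), Zdbf2 on chromosome 1 (43.6), Ddc on chromosome 11 (31.9), Trappc9 and Peg13 on chromosome 15, which share a summit with a score of 29.7, and Inpp5f on chromosome 7 (26.9). Igf2r had 2 summits, the higher with a score of 19.1. Asb4 on chromosome 6 had 1 summit, with a score of 16.0. H19, Igf2, Kcnq1ot1, Snrpn, Mest, Peg10, Grb10 and Plagl1, named after their values were seen, had none within 10 kb. No difference between domains was tested.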
